A study of Homo sapiens with 4 samples.

Results

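The genes described here are 10 transcription factor genes, many of which answer first when a cell is stimulated. They are JUN, JUNB and JUND of the Jun family, FOS, FOSB, FOSL1 and FOSL2 of the Fos family, and ATF3, EGR1 and KLF6. They were chosen by symbol, each symbol matched 1 gene ID, and they make up 10 of the 25798 gene IDs in the count table. RNA sequencing had been done on SW1990, an established human pancreatic adenocarcinoma line labelled as wild type. Cells of 2 libraries had received 100 nM erianin, a plant bibenzyl known to bind tubulin, for 48 h, and cells of 2 libraries had received DMSO, its solvent, for the same time. The title of the study names AKT and ASK1 as targets of erianin. Nothing in the labels says that the libraries came from separate cultures, so the spread between replicates may be technical.

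Jun and Fos proteins are basic leucine zipper factors that pair to form AP-1, which binds the sequence TGAGTCA in the control regions of genes for growth, migration and matrix turnover. Jun proteins can pair with themselves or with Fos proteins, while Fos proteins need a Jun partner. Many of these genes are called immediate early because signalling through ERK, JNK and p38 switches them on without new protein synthesis. The mRNAs of immediate early genes are usually short-lived. ASK1, encoded by MAP3K5, stands upstream of JNK, the kinase named for phosphorylating Jun, and of p38. ATF3 is a stress-induced partner of Jun proteins, EGR1 is a zinc finger factor induced through serum response factor, and KLF6 is a zinc finger factor described as a growth suppressor.

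The libraries held from 59923935 to 63336545 counts. Keratin genes of ductal cells were high in all of them, with KRT8 at 2648 and 3030 FPKM in the erianin libraries, against 2627 and 2613 FPKM in the DMSO libraries, while EPCAM, an epithelial adhesion gene, was at 1.48 to 3.5 FPKM. FPKM, which divides fragments by transcript length and by library size, allows levels of different genes to be set side by side. The summed FPKM of 6 fibroblast markers was 1.9 and 2.51 in the erianin libraries, against 6.96 and 2.43 in the DMSO libraries, so DMSO replicate 1 stood apart. DCN, the decorin gene, was at 0 FPKM in both erianin libraries, against 1 and 0.02 FPKM in the DMSO libraries. PTPRC of blood cells was at 0 to 0.02 FPKM, and CD68, a lysosomal gene also used outside macrophages, at 100.6 to 112 FPKM.

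FOSL1 was by far the most abundant of the 10 genes. It encodes FRA1, a Fos protein that lacks the strong activation domain of FOS and is known for its high level in invasive carcinoma cells. FOSL1 had 265.8 and 285.7 FPKM in the erianin libraries, against 245 and 242.7 FPKM in the DMSO libraries. It ranked between 311 and 347 among all gene IDs in every library. FOS, the founding member of its family, had 1.32 and 1.01 FPKM in the erianin libraries, against 0.92 and 0.86 FPKM in the DMSO libraries. The FPKM of FOSL1 was therefore 201 and 283 times that of FOS in the erianin libraries and 266 and 282 times in the DMSO libraries. FOSL1 made up 94.7% and 95.8% of the summed FPKM of the 4 Fos genes after erianin and 94.3% and 94.2% after DMSO.

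The Jun family was more even. JUND, the member that is least dependent on stimulation, held 43.9% and 53% of the summed FPKM of the 3 Jun genes in the erianin libraries, against 49.7% and 48.4% in the DMSO libraries. JUNB held from 35% to 39.5% and JUN from 12% to 16.6% over the 4 libraries. The summed Fos FPKM was 6.42 and 6.92 times the summed Jun FPKM after erianin and 5.8 and 6.53 times after DMSO, and FOSL1 alone accounts for nearly all of the Fos sum. These are transcript levels, and protein was not measured.

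By mean FPKM over the 4 libraries the order was FOSL1, JUND, JUNB, FOSL2, JUN, EGR1, KLF6, ATF3, FOS and FOSB. From FOSL1 to EGR1 each gene lay above the next without overlap of their library ranges. The ranges of EGR1 (2.99 to 3.33 FPKM) and KLF6 (1.96 to 3.34 FPKM) overlapped. Those of ATF3 (1.06 to 1.51 FPKM), FOS (0.86 to 1.32 FPKM) and FOSB (0.86 to 1.15 FPKM) overlapped too, so the order at the low end is not resolved.

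**Figure D1:**
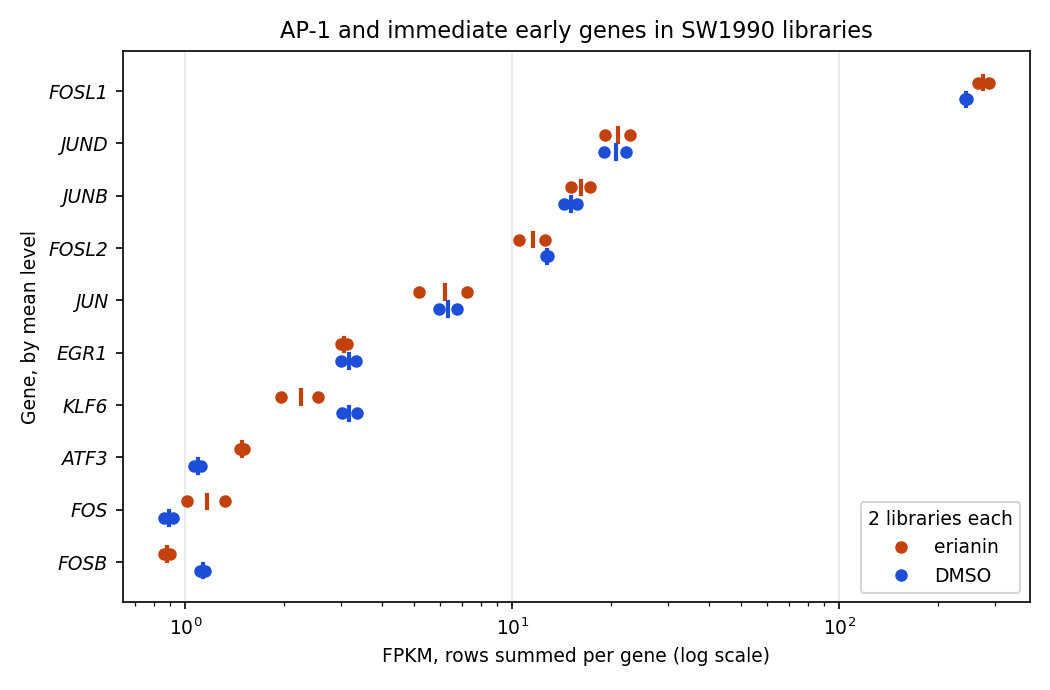
FPKM (log axis) of the 10 genes in each library, with erianin points above DMSO points for each gene, ordered by mean level over the 4 libraries, and a vertical bar at each group mean. FOSL1, at 242.7 to 285.7 FPKM, stands apart from JUND, the next gene, at 19.1 to 22.8 FPKM, and ATF3, FOS and FOSB lie near 1 FPKM.

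The promoters were searched for sites known to be bound by AP-1, by related ATF and CREB factors and by serum response factor. Promoter sequences from RefSeq (GRCh38.p14) were found for 9 of the 10 genes and were searched on both strands over the 250 bases before the annotated start. The letters TGACATCA, a variant of the AP-1 and cAMP response sites, were found before the starts of JUN, ATF3 and KLF6, against 2.36% of 34788 distinct promoters. In JUN this is the site known to be bound by Jun and ATF2. The letters TGACGT, the core of the cAMP response element TGACGTCA and contained in it, were found before FOS, FOSB, FOSL2, JUND and EGR1, against 7.09% of promoters. The whole element was found before JUND alone among these genes, against 1.64% of promoters. TGAGTCA itself was found before 0 of the 9 genes, against 4.21% of promoters, and JUNB had a match to none of the sequences searched. The stretches around these sites are printed to set the shared letters beside flanks that differ. Capitals mark the match, and each stretch reads 5′ to 3′ on the strand of the gene.
JUN: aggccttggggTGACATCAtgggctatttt
ATF3: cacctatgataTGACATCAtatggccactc
KLF6: ttggccggagcTGACATCAtcggcgcgcag
FOS: ggttgagcccgTGACGTttacactcattca
FOSB: caaggggcgggTGACGTaagcaggggggcg
FOSL2: gagtctggggtTGACGTgagtgaatccaca

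The JUN stretch is chr1:58784096-58784125 on the minus strand, with its site 67 to 60 bases before the RefSeq start. GENCODE release 29 starts the JUN transcript further upstream, so that the stretch lies inside its gene model. The FOSL2 stretch also lies inside its GENCODE gene model, and the FOS stretch reaches into its own. The ATF3 stretch is chr1:212565273-212565302 on the plus strand, before the upstream of its RefSeq starts. The 250 bases before the downstream ATF3 start (chr1:212614768-212615017) had a match to none of the sequences searched. The KLF6 stretch is chr10:3785363-3785392 on the minus strand. The FOS stretch is chr14:75278753-75278782, the FOSB stretch chr19:45467925-45467954 and the FOSL2 stretch chr2:28392781-28392810, all on the plus strand. In FOS, FOSB and FOSL2 the match begins 64, 60 and 66 bases before the start.

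Only the 250 bases before each start were searched, so sites further upstream would be missed. In that stretch EGR1 carried CArG boxes, the sites of serum response factor, which were found in 1.17% of promoters. The 250 bases before its start (chr5:138465229-138465478, plus strand) are printed because the factors that act on these boxes are described further on. Capitals mark the 2 CArG boxes, which begin 105 and 83 bases before the start, and the 2 matches to TGACGT on the other strand.
EGR1: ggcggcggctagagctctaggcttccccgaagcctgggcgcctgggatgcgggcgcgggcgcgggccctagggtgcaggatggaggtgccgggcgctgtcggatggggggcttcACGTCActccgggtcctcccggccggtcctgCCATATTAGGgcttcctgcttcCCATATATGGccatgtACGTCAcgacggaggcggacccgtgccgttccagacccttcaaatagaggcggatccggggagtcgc
A match is a run of letters and shows no binding in these cells.

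The comparison of erianin with DMSO asked whether these genes differ after exposure to a compound said to act on a kinase upstream of Jun. All libraries were taken at 48 h, so a brief change in the first hours would not be seen. Phosphorylation of Jun proteins was not measured, so the comparison does not show whether JNK signalling differed. None of the 10 passed edgeR's quasi-likelihood test at an adjusted p under 0.05, where 0.041% of the 17090 genes tested did. All 10 had passed the filter on low counts. Of the 10, 6 had a log2 fold change above 0, against 48.7% of all genes tested, with a median of 0.09 against -0.01 for all genes. The log2 fold changes ran from -0.38 for KLF6 to 0.48 for FOS. At an unadjusted p under 0.05 there were 2, FOSL1 and KLF6, against 8.1% of all genes. That number was also 2 with limma-voom, where 1673 of the 17090 genes reached it. With the DESeq2 Wald test it was 1, where 1511 genes did. After trends with GC content and length were taken out it was 0, where 1108 genes did. Fewer cells that use a gene and less of its RNA per cell cannot be told apart in these bulk libraries.

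Among the Jun genes, JUN (chromosome 1, 58780788 to 58784327, minus strand, GRCh38), the JNK substrate, had 24.1 and 21.4 CPM in the erianin libraries, against 24.8 and 21.8 CPM in the DMSO libraries. CPM here is the count scaled to a library of fixed size. The groups interleaved, and the log2 fold change was -0.04 ± 0.15 (SE), with a 95% interval from -0.38 to 0.31 and an adjusted p of 0.946 (edgeR). The interval therefore covers folds from 0.766 to 1.24. JUND (chromosome 19, 18279760 to 18281622, minus strand) had 42.3 and 55.8 CPM in the erianin libraries, against 48.1 and 41.5 CPM in the DMSO libraries. Its highest value was in erianin replicate 2 and its lowest in DMSO replicate 2, with the other libraries between them, and its log2 fold change was 0.13 ± 0.16 (SE).

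JUNB (chromosome 19, 12791496 to 12793315, plus strand), a Jun protein with weaker activating power than JUN, had 36.1 and 35 CPM in the erianin libraries, against 32.4 and 29.7 CPM in the DMSO libraries. Both erianin libraries lay above both DMSO libraries. Its log2 fold change of 0.19 ± 0.13 (SE) did not pass (edgeR, adjusted p = 0.608). JUNB overlaps HOOK2 on the opposite strand, and strandedness is not given in the sources used here, so reads of the pair could be mixed.

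Among the Fos genes, FOSL1 (chromosome 11, 65892049 to 65900573, minus strand) had 459.8 and 541 CPM in the erianin libraries, against 412 and 415 CPM in the DMSO libraries. The DMSO libraries nearly coincided, while the erianin libraries were apart from each other and both higher. The means were 500.4 ± 57.4 CPM after erianin and 414 ± 2.33 CPM after DMSO (SD, n = 2 each). The log2 fold change was 0.27 ± 0.11 (SE), a fold of 1.21 with a 95% interval from 1.02 to 1.43, at an adjusted p of 0.575 (edgeR). Among 18 alternatives FOSL1 passed only where erianin replicate 1 was left out (edgeR, log2 fold change 0.38, adjusted p = 0.00683), a fit that called 17.5% of its genes and 7.3% as higher. Over these alternatives the log2 fold change lay between 0.07 and 0.38 and the adjusted p between 0.00683 and 0.999.

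FOS (chromosome 14, 75278774 to 75282230, plus strand) had 183 and 142 counts in the erianin libraries, against 133 and 117 counts in the DMSO libraries. In scaled units these were 2.87 and 2.56 CPM after erianin and 2.01 and 1.88 CPM after DMSO, so the groups did not overlap. Its log2 fold change of 0.48 ± 0.28 (SE) had a 95% interval from -0.17 to 1.13 and did not pass (edgeR, adjusted p = 0.587). FOS was above 0 in all 18 alternatives, between 0.19 and 0.56.

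FOSL2 (chromosome 2, 28392448 to 28417312, plus strand), which encodes FRA2, had 96.2 and 89.1 CPM in the erianin libraries, against 95.3 and 97.1 CPM in the DMSO libraries. Its log2 fold change was -0.05 ± 0.10 (SE), with a 95% interval from -0.28 to 0.17, which covers folds from 0.824 to 1.13. FOSB (chromosome 19, 45467995 to 45475179, plus strand) had 3.53 and 4.3 CPM in the erianin libraries, against 4.39 and 4.78 CPM in the DMSO libraries. Both erianin values were the lower ones, and the log2 fold change was -0.23 ± 0.24 (SE). FOSB overlaps ERCC1 on the opposite strand, which had 14637 and 14701 counts in the erianin libraries and 13572 and 13753 in the DMSO libraries, against 225 to 298 for FOSB. Its values are uncertain to that extent.

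ATF3 (chromosome 1, 212565334 to 212620777, plus strand), the factor most closely tied to cell stress in this group, had 192 and 165 counts in the erianin libraries, against 145 and 131 counts in the DMSO libraries. The scaled values were 3.01 and 2.97 CPM after erianin and 2.2 and 2.1 CPM after DMSO. Replicates lay close together and the groups did not overlap. The log2 fold change was 0.48 ± 0.27 (SE), a fold of 1.39 with a 95% interval from 0.907 to 2.14, and did not pass (edgeR, adjusted p = 0.579). ATF3 was above 0 in all 18 alternatives, between 0.25 and 0.56, and between 0.44 and 0.51 when each library was left out in turn.

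EGR1 (chromosome 5, 138465490 to 138469315, plus strand) had 11.2 and 11.9 CPM in the erianin libraries, against 10.5 and 11.8 CPM in the DMSO libraries. The groups overlapped, and the log2 fold change was 0.05 ± 0.16 (SE), with a 95% interval from -0.33 to 0.43. KLF6 (chromosome 10, 3775996 to 3785281, minus strand) had 13.3 and 11.4 CPM in the erianin libraries, against 17.1 and 15.1 CPM in the DMSO libraries. Both erianin libraries lay below both DMSO libraries. Its log2 fold change of -0.38 ± 0.16 (SE) was the lowest of the 10 genes and did not pass (edgeR, adjusted p = 0.575). KLF6 was highest in DMSO replicate 1, the library with the most fibroblast marker RNA, and without that library its log2 fold change was -0.29. Leaving out each library in turn gave -0.51 to -0.27. The part of those transcripts in the KLF6 value was not tested.

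Counting groups that did not overlap, 4 of the 10 genes (JUNB, FOS, FOSL1 and ATF3) had both erianin libraries above both DMSO libraries, against 21.7% of all genes tested. FOSB and KLF6 had both below, against 24.4%. Together 46.1% of all genes had groups that did not overlap, so 6 of 10 is not far from the rest.

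**Figure D2:**
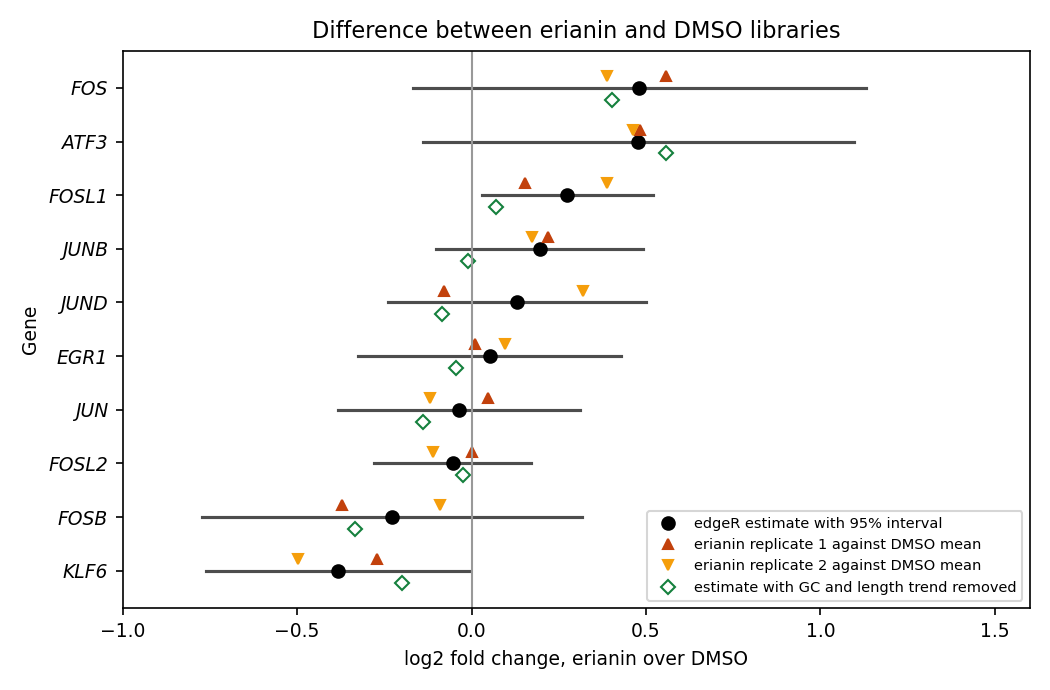
Log2 fold change of erianin over DMSO (horizontal axis) for the 10 genes, with edgeR estimates and 95% intervals, the value of each erianin replicate against the DMSO mean, and the estimate after the trend with GC content and length was removed. The intervals of FOSL1 (0.03 to 0.52) and KLF6 (-0.76 to -0.01) leave out 0 before adjustment, and for JUNB, JUND and EGR1 the estimate with the trend removed lies on the other side of 0.

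Over 8014 well-expressed genes (mean log2 CPM of 3 or more) the log2 fold change rose with GC content. The Spearman value was 0.663, a description across genes and not over replicates. It was 0.497 for erianin replicate 1 and 0.653 for erianin replicate 2, each set against the same DMSO mean. These values share the DMSO libraries and are therefore not independent. FOSL1, at a GC content of 60%, had a log2 fold change of 0.27, and 605 well-expressed genes within 1 percentage point of its GC content had a median of 0.16. FOSL1 was at 0.07 once the trends of the libraries with GC content and with length had been taken out. JUNB, at 64.9% GC, was at 0.19, against a median of 0.19 for 295 genes of like GC content, and at -0.01 with the trend removed. JUND, the most GC-rich of the 10 at 69.7%, was at -0.09 with the trend removed, against 0.13 before.

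KLF6, at 45.9% GC, was the most AT-rich, and 538 genes of like GC content had a median of -0.14. Its log2 fold change was -0.20 with the trend removed. ATF3 lay on the other side of its neighbours. At 46.7% GC, where 570 genes had a median of -0.11, ATF3 was at 0.48, and at 0.56 with the trend removed. FOS, at 52.6% GC, was at 0.48 and then at 0.40, and FOSB, at 57.7% GC, was at -0.23 and then at -0.34. ATF3, FOS and FOSB were less abundant than the well-expressed genes that set these medians and trends. Their SE before removal of the trend were 0.27, 0.28 and 0.24, so their distance from those genes is uncertain. None of the 10 passed with the trend removed (edgeR, smallest adjusted p = 0.739, for ATF3), and 3 of 10, FOS, FOSL1 and ATF3, were then above 0. Set against the DMSO mean, erianin replicate 1 had a median of 0.03 over the 10 genes and erianin replicate 2 a median of 0.14.

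**Figure D3:**
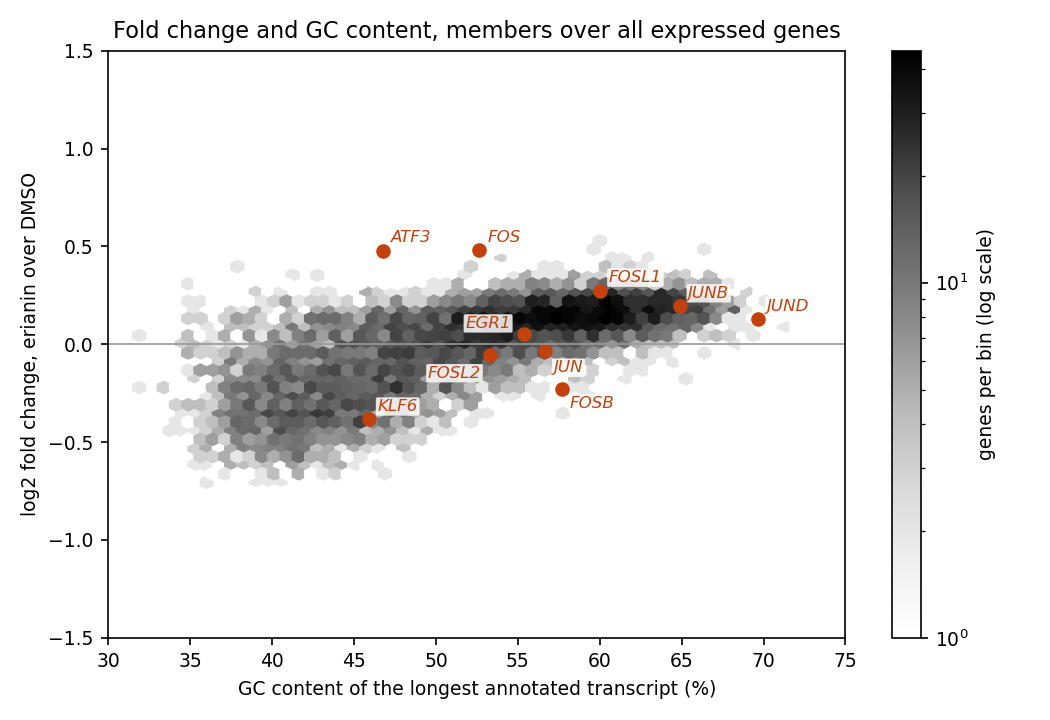
Log2 fold change of erianin over DMSO against GC content of the longest annotated transcript. Grey bins (darker for more genes, log scale) hold 8014 well-expressed genes (mean log2 CPM of 3 or more), and orange points are the 10 genes, of which FOS, ATF3 and FOSB are less abundant than that. JUNB lies at the median of the genes of like GC content (0.19), ATF3 and FOS lie above theirs (-0.11 and 0.05), and FOSB lies below its own (0.13).

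The deposited table gives most genes in several rows, without transcript names, and for these 10 genes the rows matter. JUN had 2 rows. The first held 1347 and 0 counts in the erianin libraries, against 0 and 0 counts in the DMSO libraries, and the second held 185 and 1189 counts in the erianin libraries, against 1635 and 1363 counts in the DMSO libraries. In erianin replicate 1 alone, 87.9% of the JUN counts were in the first row. The sum of both rows was 1532 and 1189 counts after erianin and 1635 and 1363 after DMSO. With the highest row of each gene ID in place of the sum, which for JUN is the second, its log2 fold change was -0.93 (edgeR, adjusted p = 0.907), against -0.04 for the sum. In that library 1 FPKM was worth 208 counts in the first row and 237 in the second, so the summed FPKM of JUN in erianin replicate 1, 7.27, is higher for the same count than in the other libraries.

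FOSL2 had a minor row with 120 and 140 counts in the erianin libraries, against 1 and 0 counts in the DMSO libraries. That row held 2% and 2.8% of the FOSL2 counts after erianin. KLF6 had a minor row with 0 and 16 counts in the erianin libraries, against 201 and 70 counts in the DMSO libraries, where it made up 17.9% and 7.4% of the gene. From its highest row KLF6 had a log2 fold change of -0.17. FOSB had a row with 10 and 46 counts in the erianin libraries, against 94 and 122 counts in the DMSO libraries. Its most abundant row held 177 and 191 counts after erianin, against 170 and 131 after DMSO, so that FOSB was at 0.42 from that row and at -0.23 from the sum. The minor rows were picked out after their values had been seen, and no test was made on them. The values from the highest row did not pass (edgeR, adjusted p = 0.907 for KLF6 and 0.900 for FOSB). The split of FOSL1 was steadier, with 69.7% and 66.1% of its counts in the main row after erianin and 66.8% and 69.9% after DMSO.

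**Figure D4:**
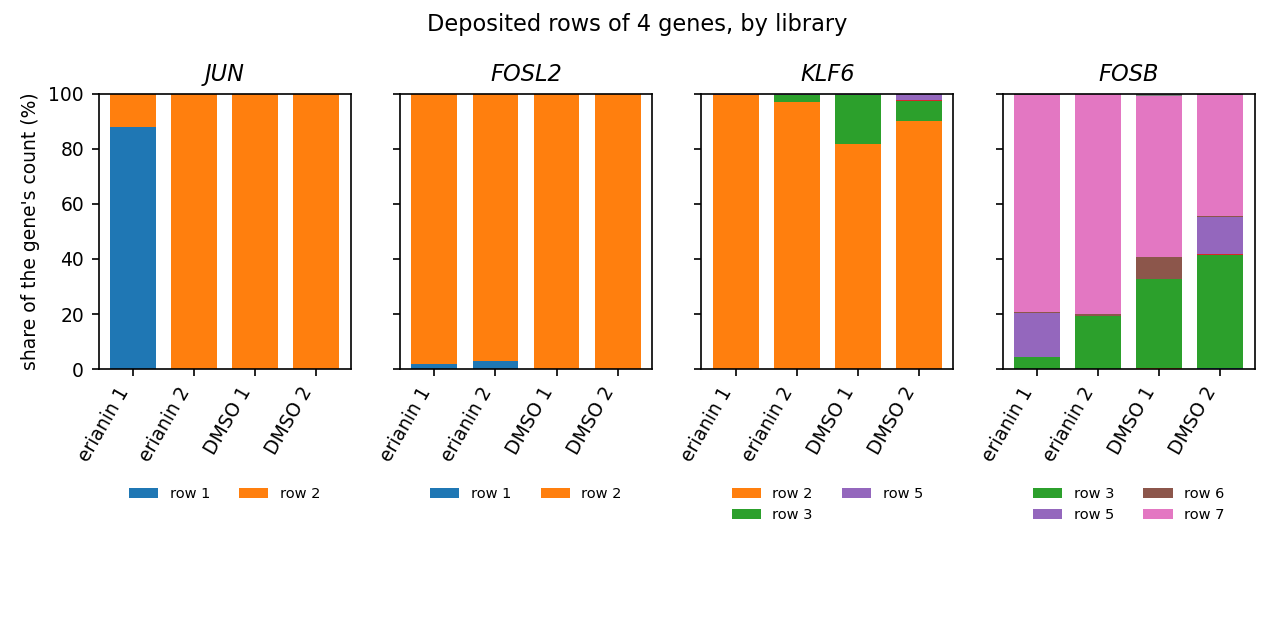
Share of each gene's count (%) that fell in each deposited row, for JUN, FOSL2, KLF6 and FOSB in the 4 libraries, with rows that reach 2% named in the legends. JUN fell almost wholly in its second row except in erianin replicate 1, where 87.9% was in the first.

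Short-lived immediate early mRNAs often carry AU-rich elements, built from ATTTA in the 3′ untranslated region. In the longest coding transcript, 10 of the 10 genes held at least 1 ATTTA there, against 70.9% of 13186 genes tested. The density was 1.77 per kilobase at the median of the 10 and 1.56 per kilobase over all those genes. FOS had 5 ATTTA in 806 bases, or 6.2 per kilobase, and EGR1, at the low end, had 1 in 1234 bases. The AU-rich element is a known cause of the short life of FOS mRNA. The densest stretch of FOS, bases 623 to 652 of that region in GENCODE release 29, is therefore printed, with ATTTA in capitals.
FOS: aaacgttttattgtgtttttaATTTATTTA

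Other genes of the pathway were taken from lists. Of 11 tested among 12 other partners of AP-1, 0 passed in either direction (edgeR), against 0.041% of all genes tested. An unadjusted p under 0.05 was reached by 1, against 8.1% of all genes, and 7 were above 0, against 48.7%. ATF2, the JNK and p38 substrate that pairs with JUN, had 7.08 and 5.61 CPM in the erianin libraries, against 8.86 and 8.85 CPM in the DMSO libraries, a log2 fold change of -0.48 ± 0.20 (SE). It was at -0.25 with the GC and length trend removed. MAFF, a small Maf protein, had 61.3 and 61.6 CPM after erianin and 55.4 and 56.9 CPM after DMSO, and BATF, a partner of JUN best known in lymphocytes, had 47.6 and 51 CPM after erianin and 46.8 and 49 CPM after DMSO. BATF3 was at 0.644 and 0.522 CPM after erianin and at 0.379 and 0.24 CPM after DMSO.

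Of 19 tested among 21 other immediate early genes, 0 passed (edgeR), against 0.041% of all genes tested. An unadjusted p under 0.05 was reached by 0, against 8.1% of all genes. Of the 19, 11 were above 0, against 48.7%, with a median of 0.06 against -0.01 for all genes. IER3, an apoptosis regulator, had 228 and 248 CPM in the erianin libraries, against 213 and 204 CPM in the DMSO libraries, a log2 fold change of 0.19 ± 0.09 (SE) that was -0.01 with the trend removed. IER5L was at 0.34 ± 0.18 (SE), or 0.15 with the trend removed, and IER5 was at 0.23 ± 0.15 (SE), or 0.29. CCN1, a matricellular protein gene, had 225 and 198 CPM after erianin and 222 and 215 CPM after DMSO, a log2 fold change of -0.05 ± 0.10 (SE).

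Of the 11 factors that act on immediate early promoters, 0 passed (edgeR), against 0.041% of all genes tested. An unadjusted p under 0.05 was reached by 1, against 8.1% of all genes, and 5 were above 0, against 48.7%. SRF, which binds CArG boxes such as those printed for EGR1, had 81.4 and 89.2 CPM in the erianin libraries, against 73.1 and 90 CPM in the DMSO libraries, which overlap. ELK1, its ERK-activated partner, had 113 and 128 CPM after erianin and 106 and 103 CPM after DMSO, a log2 fold change of 0.20 ± 0.10 (SE), or 0.07 with the trend removed. ELK3, a partner that can repress, had 12.2 and 10 CPM after erianin and 15.9 and 16 CPM after DMSO, a log2 fold change of -0.52 ± 0.17 (SE), or -0.29 with the trend removed. MRTFA, the actin-regulated partner of SRF, was at 0.18 ± 0.14 (SE), or 0.07 with the trend removed. The corepressors of EGR1 lay on both sides, with NAB2 at 0.18 ± 0.12 (SE) and NAB1 at -0.38 ± 0.23 (SE). With the trend removed NAB2 was at 0.0074 and NAB1 at -0.13.

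Of 12 kinases that act on Jun and Fos proteins or stand upstream of those that do, 11 were tested. Of these, 0 passed the adjusted test (edgeR), and 8 were below 0, against 51.3% of all genes. At an unadjusted p under 0.05, 4 were lower, against 5.89% of all genes. RPS6KA3, which encodes the ERK-activated kinase RSK2, had 13.1 and 8.24 CPM in the erianin libraries, against 17.9 and 16.7 CPM in the DMSO libraries, a log2 fold change of -0.70 ± 0.22 (SE). MAP2K4, which activates JNK, was at -0.47 ± 0.19 (SE). With the trend removed RPS6KA3 was at -0.39 and MAP2K4 at -0.23. MAPK3, which encodes ERK1, lay on the other side at 0.23 ± 0.11 (SE), and MAP2K7, the other activator of JNK, was at 0.06 ± 0.11 (SE). Removal of the trend brought MAPK3 to 0.05 and MAP2K7 to -0.10.

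The 4 genes for turnover of Jun proteins were all below 0, against 51.3% of all genes, and 0 passed (edgeR), with 1 lower at an unadjusted p under 0.05, against 5.89%. ITCH, a ubiquitin ligase of JUN and JUNB, had 13.6 and 13 CPM in the erianin libraries, against 20 and 19 CPM in the DMSO libraries, a log2 fold change of -0.55 ± 0.15 (SE, adjusted p = 0.575), or -0.24 with the trend removed. FBXW7, which directs phosphorylated JUN to the proteasome, had 1.43 and 0.486 CPM after erianin and 1.94 and 2.24 CPM after DMSO. Its log2 fold change was -1.12 ± 0.51 (SE), or -0.96 with the trend removed. COP1, another ligase of JUN, was at -0.25 ± 0.19 (SE), or -0.21 with the trend removed.

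Of 15 tested among 18 known AP-1 target genes, 0 passed (edgeR), against 0.041% of all genes tested. An unadjusted p under 0.05 was reached by 0, against 8.1% of all genes. Of the 15, 9 were above 0, against 48.7%, with a median of 0.04 against -0.01 for all genes. PLAUR, the urokinase receptor gene and a known target in carcinoma cells, had 49.9 and 54.5 CPM in the erianin libraries, against 41.9 and 45.1 CPM in the DMSO libraries. Its log2 fold change was 0.26 ± 0.12 (SE), or 0.11 with the trend removed. TIMP1, a metalloprotease inhibitor gene, had 747 and 844 CPM after erianin and 696 and 692.5 CPM after DMSO, a log2 fold change of 0.20 ± 0.10 (SE), or -0.01 with the trend removed. CCND1, the cyclin D1 gene, had 139 and 106 CPM after erianin and 145 and 140.3 CPM after DMSO. Its log2 fold change was -0.22 ± 0.13 (SE), or -0.18 with the trend removed. VIM, the gene of the intermediate filament vimentin, had 1863 and 1735 CPM after erianin and 1912 and 1897 CPM after DMSO. Its log2 fold change was -0.08 ± 0.09 (SE), or 0.01 with the trend removed.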

How the data were processed

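Total RNA of SW1990 cells was sequenced in 2 erianin and 2 DMSO libraries, grouped by their titles. Build GRCh38 and the tools featureCounts 2.0.1, StringTie 2.2.1, STAR and fastp are listed, with no role, in the submitters' processing notes. Neither annotation nor strandedness is known here. The authors deposited whole-number estimated counts (107429 rows for 25798 gene IDs, not normalized) and FPKM for the same rows, per the file headers. Rows were summed per gene ID. Symbols came from a gene name table, positions and GC content from GENCODE release 29, and promoters from RefSeq.

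edgeR 4.0.16 (R 4.3.3) was run on all genes with TMM factors, a minimum count of 10, the quasi-likelihood test and Benjamini-Hochberg adjustment at 0.05; 17090 genes were tested. Intervals are at 95%, and standard errors are the fold change over the root of F. CPM is scaled by TMM. The main fit was tested on simulated data at the same threshold. It recovered 14.2% of 1.5-fold, 49.6% of 2-fold and 76.2% of 4-fold changes. A gene that did not pass may therefore still differ. Alternatives used limma 3.58.1, DESeq2 1.42.0, other scalings and filters, a spline offset (5 degrees of freedom) for GC content and length, and each library left out. For FPKM, limma was run on log2(FPKM + 0.1) and log2(FPKM + 1). The 10 genes and the lists were chosen with earlier results of these data known. From each list up to 3 tested genes with the smallest p and the 2 with the highest mean CPM were named. One gene that this rule names is not reported here. Same-numbered libraries were not taken as pairs.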

Additional observations from a re-analysis of the deposited data

How the results depend on the processing

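Over 18 alternatives the 10 genes gave 180 fold changes, of which 163 kept their direction and their side of the threshold, 16 changed sign and 1, FOSL1 without erianin replicate 1, came to pass. FOS, FOSL1, ATF3 and KLF6 kept their sign in every alternative. EGR1 was at -0.048 with library totals alone, at -0.043 with limma on log2(FPKM + 0.1), filtered or not, at -0.034 on log2(FPKM + 1), at -0.045 with the GC and length offset and at -0.044 with that offset and the replicate block. JUNB and JUND were at -0.011 and -0.086 with the offset, and at -0.016 and -0.085 with the offset and the block. FOSB was at 0.42 with the highest row of each gene ID. With 1 library left out, JUN ran from -0.13 to 0.056, JUND from -0.082 to 0.31, FOSL2 from -0.12 to 0.0023, EGR1 from -0.030 to 0.14 and FOSB from -0.37 to -0.10.

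Of the 10 genes, 6 were above 0. These became 3 with the offset, and 3 with the offset and the block, 5 with library totals alone or limma on FPKM, and 7 with the highest row or without erianin replicate 2. The median of all 10, 0.09, was 0.028 when erianin replicate 2 was left out and 0.15 when DMSO replicate 1 was, the lowest and highest of the leave-one-out values. It became -0.013 with library totals alone, -0.011 with limma on log2(FPKM + 0.1), filtered or not, -0.0065 on log2(FPKM + 1), -0.036 with the offset, -0.035 with the offset and the block, and 0.17 with the highest row. Library totals moved the median of all genes by -0.10, FPKM + 0.1 by -0.08. The causes were not tested, except that the single row leaves out counts.

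The 7 genes past the threshold (2 higher, 5 lower) became 2 (0 higher) with library totals alone, 21 (12 higher) with DESeq2, 0 with limma-voom (1673 at an unadjusted p under 0.05), 2, 2 and 1 with limma on FPKM at + 0.1, at + 1 and at + 0.1 unfiltered, 334 (66 higher) with the replicate block, 16 (9 higher) with the offset and block, and 0 with the highest row (771 unadjusted). The split was 4 and 6 with upper-quartile factors and 0 and 5 with the offset. With 1 library left out the count ran from 24 (without erianin replicate 2) to 3166 (without erianin replicate 1), with 62 and 73 without DMSO replicates 1 and 2. A fit without 1 library assumes that the lone one varies like the other group.

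The pairing of libraries by number was checked by the correlation of their deviations from the group means, which was 0.0781 over 8033 genes. With the replicate block none of the 10 genes passed. FOS, FOSB and ATF3 rest on 117 to 298 counts a library.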
